A study of Homo sapiens with 12 samples.

Results

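BBC3 encodes PUMA, a small protein of the BH3-only class that sets off cell death by binding BCL2 and its survival relatives and so freeing BAX and BAK at the mitochondrion. Its transcription is switched on by p53, and embryonic stem cells are known to die readily by this route after DNA damage. TDP43 is a nuclear RNA-binding protein that prefers UG-rich RNA, much of it deep in introns, where it can keep hidden exons out of mature transcripts. FOX2 (RBFOX2) is a splicing factor that recognises GCAUG elements, and hnRNP M is an abundant nuclear protein that favours GU-rich intronic RNA.

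The region described is the BBC3 gene, taken as an interval of 11945 nt on the minus strand of chromosome 19 (build hg19), within which the listed positions ran from 47724244 to 47735626. Every position listed there was kept, which gave 343 of the 1162690 listed positions of the series. The gene was chosen because TDP43 stood above FOX2 there in WT cells, so that contrast is described without a test. The interval was cut from coordinates. The transcript identifiers carried by the positions could not be paired with gene symbols here (0 of 51235 identifiers matched), and for the same reason other BCL2 family and p53 target genes and pluripotency markers were not analysed here.

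The data came from iCLIP, a method that fixes proteins to the RNA under them with ultraviolet light, pulls down one protein by antibody and reads the crosslinked nucleotide from the place where the cDNA stops. H9, a long-established line of human embryonic stem cells, was grown either unmodified (WT) or as P-KO cells, which the source label calls SPA PKO. The labels do not say how many P-KO clones were used. Crosslinking used 400 mJ per square centimetre throughout, and FOX2, TDP43 and hnRNP M were each recovered from both genotypes in 2 libraries, called biological replicates in the design text. In the part of the Prader-Willi region of chromosome 15 (plus strand) where SPA RNAs arise, as earlier results of these data had outlined it, the P-KO libraries held 0% to 0.0211% of their counts and the WT libraries 0.735% to 1.485%, which matches the genotype labels in all 12 libraries. Depth ranged from 58191 to 648651 window counts per library, the hnRNP M libraries being the shallowest and FOX2 P-KO replicate 2 the deepest.

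A window count is the count listed at a position, after positions closer than 11 nt to a higher one on the same strand had been dropped because their counts overlap. CPM is the window count scaled to a library total of 1000000 window counts. A region without a line is called listed at 0, since low values were left out of the lists. In the WT libraries of TDP43, BBC3 held 134 window counts in 21 windows in replicate 1 and 176 in 32 windows in replicate 2. In the P-KO libraries of TDP43 it held 105 in 27 windows and 286 in 41 windows.

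Among the 8 libraries of the other proteins, 5 were listed at 0. These were both FOX2 WT libraries, FOX2 P-KO replicate 1, hnRNP M WT replicate 2 and hnRNP M P-KO replicate 1. FOX2 P-KO replicate 2 had 21 counts in 4 windows, hnRNP M WT replicate 1 had 7 in a single window and hnRNP M P-KO replicate 2 had 3 in a single window. Each TDP43 library thus had more windows in BBC3 than these 8 libraries together.

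Scaled to depth, the TDP43 WT libraries held 645 CPM (95% Clopper-Pearson interval 540 to 764) and 622 (533 to 721), a mean of 633 ± 16.2 (SD, n = 2). The TDP43 P-KO libraries held 608 CPM (498 to 736) and 977 (867 to 1097), a mean of 793 ± 261. These intervals cover counting error alone, and PCR copies of one molecule would make them too tight. The TDP43 P-KO libraries lay on both sides of the WT pair, so the genotypes overlapped.

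hnRNP M followed far below, with 56.8 ± 80.3 CPM in WT and 25.8 ± 36.5 in P-KO. FOX2 had 16.2 ± 22.9 CPM in P-KO and was listed at 0 in WT. These groups each included a library listed at 0 and could not be put in order beyond their spread. The lowest TDP43 library, at 608 CPM, stood above the highest library of another protein, hnRNP M WT replicate 1 at 114 CPM (45.7 to 234).

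**Figure D1:**
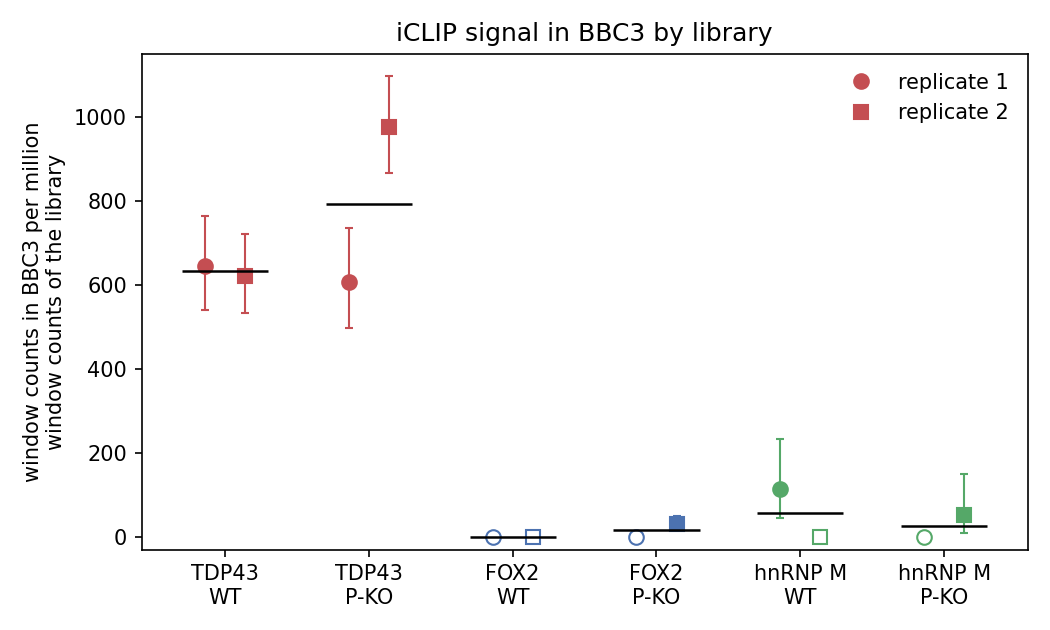
CPM of BBC3 (y axis) for each library, grouped by protein and genotype (x axis). Circles are replicate 1 and squares replicate 2, black lines are group means, vertical bars are 95% Clopper-Pearson intervals, and open symbols are libraries listed at 0. The 4 TDP43 libraries sit between 608 and 977, and the other libraries between 0 and 114.

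The contrast that singled out the gene used WT libraries, and the P-KO libraries were not in it. Earlier results of the series were known when the gene was chosen, however, so the tests in P-KO are not independent evidence of its direction. The question was whether TDP43 contact with BBC3 exceeded that of FOX2 and hnRNP M in these cells too. The test compared BBC3 and 10 kb bins of the whole genome, 10563 features in all, in one edgeR quasi-likelihood fit over the 12 libraries with Benjamini-Hochberg adjustment. Against FOX2, TDP43 P-KO was 5.02 higher on the log2 scale (approximate SE 1.56, 95% interval 1.95 to 8.08), and both TDP43 libraries stood above both FOX2 libraries. This difference did not pass the threshold of 0.05 (edgeR adjusted p = 0.0551, unadjusted p = 0.00132), while 2.11% of features passed, 0.227% with TDP43 higher. It passed in some other settings and missed in others, with edgeR or DESeq2 adjusted p from 5.38e-09 to 0.954.

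Against hnRNP M, TDP43 P-KO was 6.56 higher on the log2 scale (approximate SE 1.75, 95% interval 3.12 to 9.99), and both TDP43 libraries again stood above both hnRNP M libraries. This difference passed (edgeR adjusted p = 0.0348), as it did for 0.88% of features, and each of those was higher in TDP43. In hnRNP M P-KO replicate 1, 7072 of the 10563 features were listed at 0, and in replicate 2, 5998 were. The call was lost without the TMM scaling factors, which were 2.87 and 2.14 in the hnRNP M P-KO libraries (log2 difference 4.94, edgeR adjusted p = 0.198). On that scale the difference from FOX2 was 5.42, so the order of the 2 differences depends on these factors. The call was also lost when any library other than those of hnRNP M WT was left out (edgeR adjusted p 0.0655 to 0.570). An exact permutation test of 2 libraries against 2 cannot give a two-sided p under 0.333 and was not used.

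**Figure D2:**
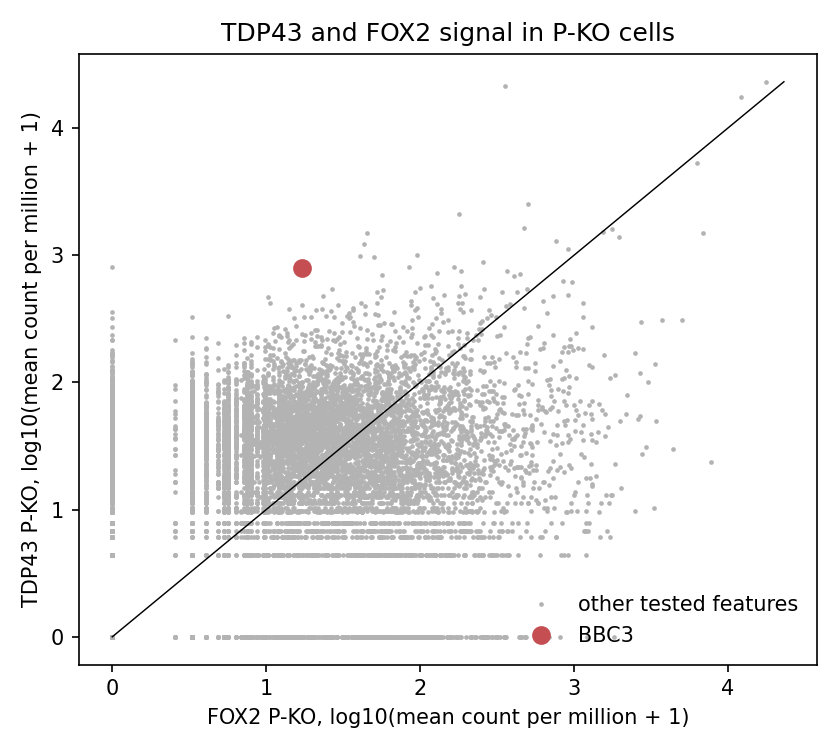
Mean CPM of the 2 TDP43 P-KO libraries (y axis) against the 2 FOX2 P-KO libraries (x axis), both as log10(CPM + 1), for the 10563 tested features; the line marks equal values. BBC3, in red, lies far above the line, at a mean of 793 CPM for TDP43 and 16.2 for FOX2. By log2 difference, with the largest excess of TDP43 first, it ranked 945th of the 10563.

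Genotype was then compared within TDP43. BBC3 was 0.27 higher in P-KO on the log2 scale (approximate SE 1.31, 95% interval -2.29 to 2.84), which did not pass (edgeR adjusted p = 1.00), against 0.0284% of features that did. The interval allows a change of several-fold either way, so a difference of that size was not detectable with these libraries. The WT libraries were high here by choice, which favours a lower value in P-KO. Without TDP43 P-KO replicate 2 the difference turned to -0.36.

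Set among the tested features of each library, BBC3 ranked 25th by CPM of 10563 in both TDP43 P-KO libraries, and 57th and 44th in the TDP43 WT libraries that chose it. Its interval is somewhat longer than the bins. The median feature held 29.0 and 20.5 CPM in the TDP43 P-KO libraries. In FOX2 P-KO replicate 2, BBC3 ranked 3404th. By log2 difference in P-KO, with the largest excess of TDP43 first, BBC3 ranked 945th of 10563 against FOX2 and 1168th against hnRNP M. Many features therefore had a larger excess of TDP43.

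TDP43 contacts were gathered in one part of the gene. On the minus strand the upper end of the interval is the 5′ end, and distances are counted from there. With the 4 TDP43 libraries pooled, in steps of 500 nt, each step from 2500 to 4500 nt held over 10% of the TDP43 counts in BBC3, and no other step did. Single libraries differed within it: TDP43 WT replicate 1 was listed at 0 from 4000 to 4500 nt, and P-KO replicate 2 had 8.04% of its BBC3 counts from 2500 to 3000 nt. This stretch, chr19:47731524-47733523, makes up 16.7% of the interval. It held 95.5% of the BBC3 counts of TDP43 WT replicate 1 (exact 95% interval 90.5 to 98.3) and 85.2% of replicate 2 (79.1 to 90.1). In P-KO it held 89.5% of replicate 1 (82.0 to 94.7) and 86.0% of replicate 2 (81.4 to 89.8). The stretch was drawn after the counts were seen, so these shares describe it and test nothing.

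Outside it, TDP43 windows were few and low. The outermost listed positions of BBC3 were both in TDP43 P-KO libraries. Within 10000 nt beyond either end of the interval on the same strand, and on the plus strand inside the interval, all 12 libraries were listed at 0. No listed signal was thus seen beyond the interval. Listed positions carry a transcript label, so places without an annotated transcript may hold no lines whatever was bound there. Counts too low to be listed cannot be seen either, so where contact ended is not shown.

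**Figure D3:**
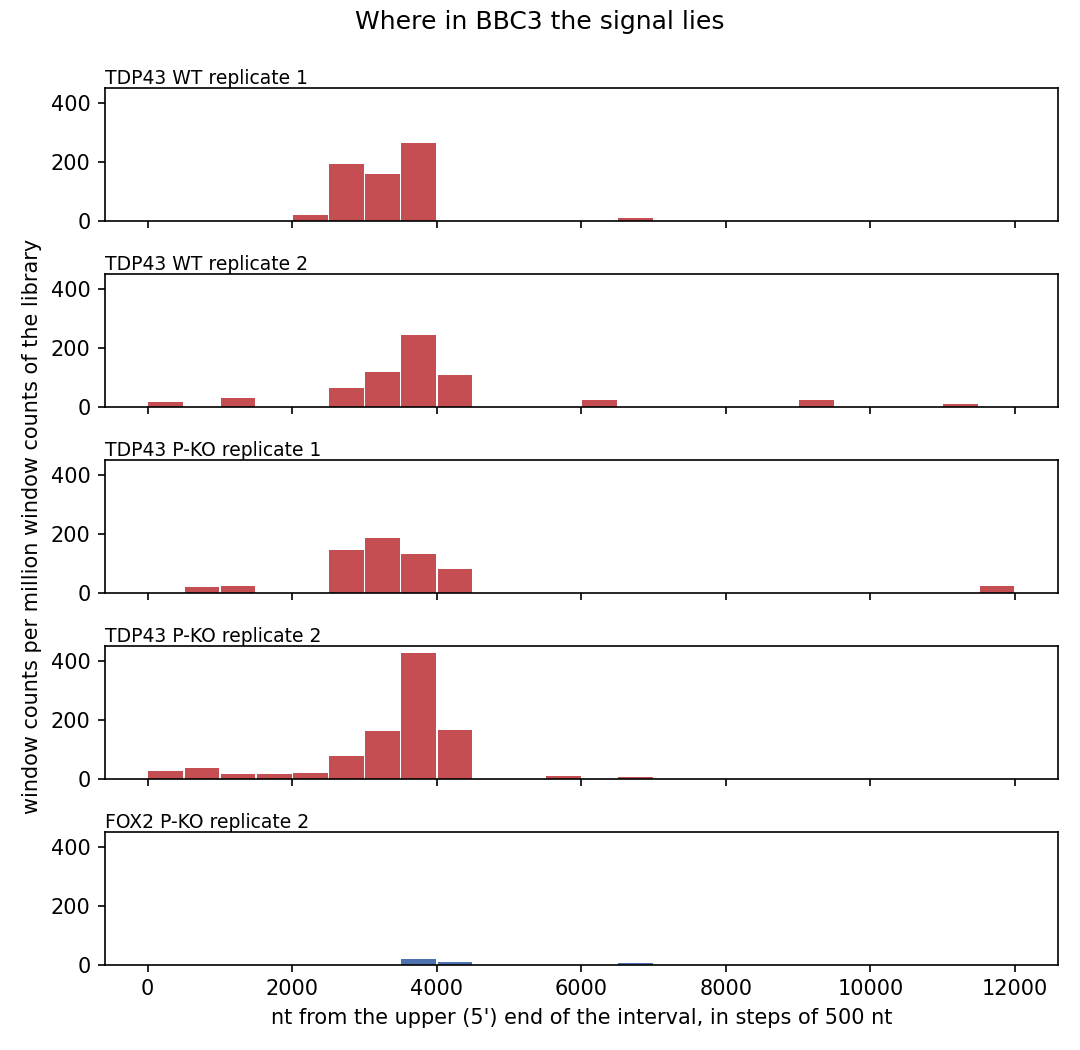
CPM (y axis, one scale for all panels) in steps of 500 nt from the upper, 5′ end of the BBC3 interval (x axis), for the 4 TDP43 libraries and FOX2 P-KO replicate 2. In each TDP43 library most of the signal lies between 2500 and 4500 nt, and the FOX2 panel holds 21 counts in all.

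Nearly all of these contacts were intronic by the deposited labels. Introns held 100% of the BBC3 counts of TDP43 WT replicate 1 (exact 95% interval 97.3 to 100) and 95.5% of replicate 2 (91.2 to 98.0). In P-KO they held 96.2% (90.5 to 99.0) and 99.0% (97.0 to 99.8). Over their whole lists, introns held 79.7% to 89.7% of the counts of the TDP43 libraries. Those lists include mitochondrial and GL positions, and the intron share without them was not analysed here. All counts of FOX2 and hnRNP M in BBC3 were intronic as well.

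Intron 1 of ENST00000300880.7 carried 448 TDP43 window counts in 74 windows, listed from 47731735 to 47735626. Intron 3 of ENST00000449228.1 carried 228 in 38 windows, listed from 47732513 to 47735451. The spans of the 2 labels overlap, and each position carries a single label, so they do not separate the signal into 2 places. Intron 1 of ENST00000449228.1, further towards the 3′ end, carried 8 TDP43 counts in 3 windows. Positions without an intron label were rare, with 5 TDP43 windows of 2 to 4 counts each, at 47724244, 47724878, 47729832, 47729985 and 47730081. Of these, none shared a nucleotide with a window of another library.

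RefSeq places 2 microRNA genes, MIR3190 and MIR3191, inside BBC3. Its coordinates are of another build, so their distance from the TDP43 sites was not analysed here. The letters of the bound sites were not analysed here either, so no statement on UG content is made.

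The windows of the 4 TDP43 libraries merged into 71 sites, where windows that share at least 1 nt count as a single site. Of these, 23 were found in at least 2 libraries, 11 in at least 3 and 3 in all 4. Of the 23 repeated sites, 22 joined WT and P-KO libraries. The 11 in at least 3 libraries had to, since each genotype has 2 TDP43 libraries. Most pairs of these libraries also cross genotypes, so this count tests nothing. The dense stretch held 21 of the 23 repeated sites, against 51 of all 71 sites, and it was drawn from these same counts. Sites seen in a single genotype numbered 22 for WT and 27 for P-KO, and all but 1 of them came from a single library.

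The highest site spanned chr19:47732129-47732165. Its highest listed count was 16 in TDP43 WT replicate 1, 14 in WT replicate 2, 3 in P-KO replicate 1 and 35 in P-KO replicate 2. In both WT libraries the highest window was kept at 47732146, and in P-KO replicate 2 at 47732139. In WT replicate 1 the count of 16 was listed at several positions from 47732146 to 47732151, and the lowest position was kept. Agreement of the WT libraries to the nucleotide is therefore not shown. TDP43 P-KO replicate 1 had its highest window elsewhere, at 47732833 with 7 counts.

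The next site followed within a few nucleotides, at chr19:47732170-47732216. Its highest listed count was 12 and 10 in WT, against 3 and 26 in P-KO, so the P-KO replicates stood below and above the WT pair at both sites. The third site found in all 4 libraries, chr19:47732893-47732912, was low and even, with highest counts of 4, 5, 4 and 4.

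Together the first 2 of these sites span 88 nt, the short gap between them included. They held 25.4% of the BBC3 counts of TDP43 WT replicate 1 (95% Clopper-Pearson interval 18.3 to 33.6), 26.1% of WT replicate 2 (19.8 to 33.3) and 30.8% of P-KO replicate 2 (25.5 to 36.5). These intervals cover counting error alone and test no difference between libraries. In P-KO replicate 1 the 2 sites held 5.71% (2.13 to 12.0), an interval that does not meet the other 3. That library is the shallowest of the 4, with 172613 window counts, and the part of depth in this was not tested.

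Sites in 3 libraries lay on both sides of the pair. At chr19:47731897-47731911 the highest counts were 10 in TDP43 WT replicate 2, 4 in P-KO replicate 1 and 6 in P-KO replicate 2. At chr19:47732531-47732542 they were 5, 5 and 16 in the same libraries. TDP43 WT replicate 1 was listed at 0 at both of these sites, while at chr19:47733045-47733059 it had 6 and WT replicate 2 was listed at 0. Which libraries shared a site thus varied along the stretch.

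**Figure D4:**
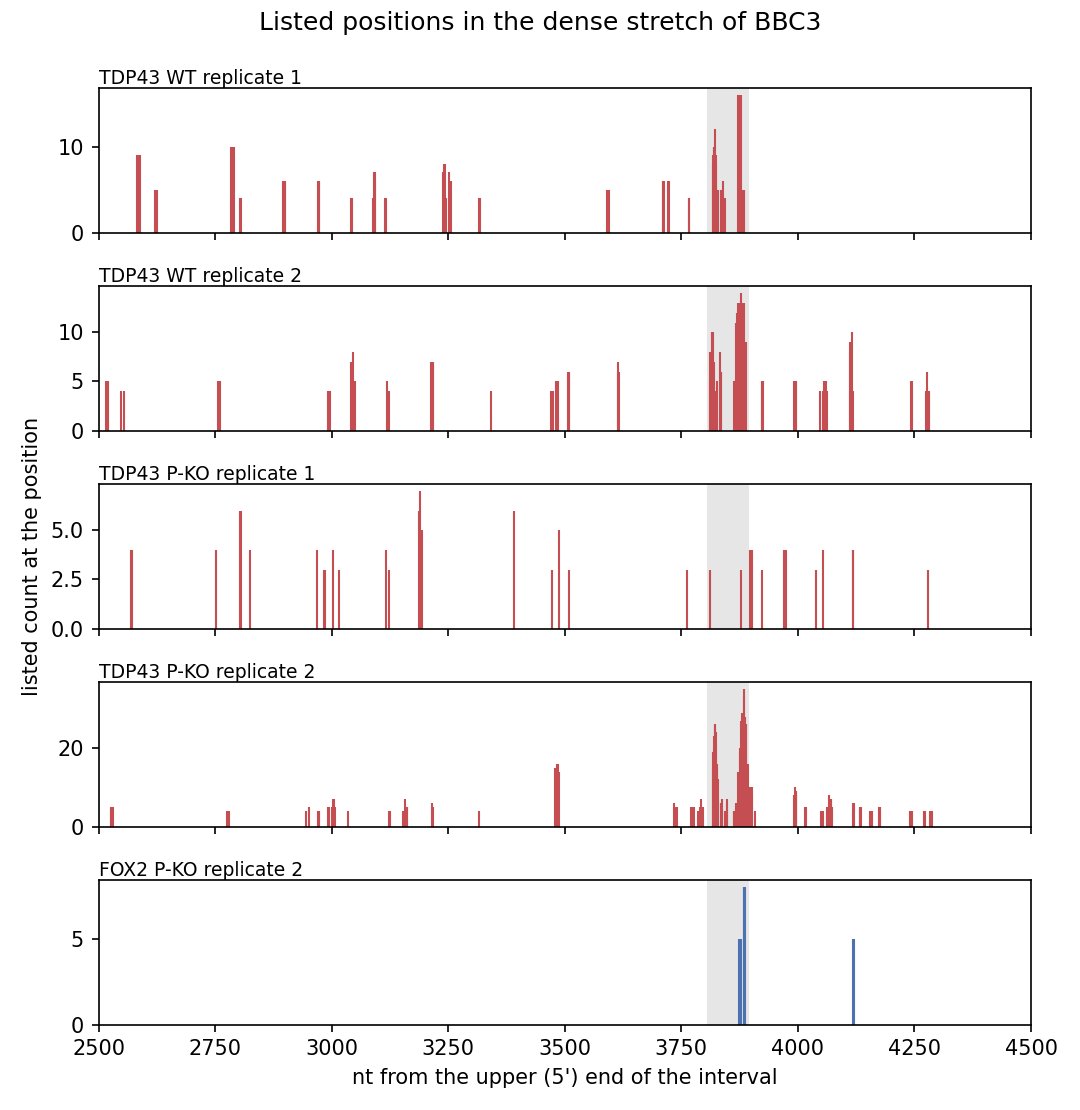
Count listed at each position (y axis, a separate scale for each panel) between 2500 and 4500 nt from the 5′ end of the BBC3 interval (x axis), in the 4 TDP43 libraries and FOX2 P-KO replicate 2. The grey band marks the 88 nt spanned by the 2 neighbouring sites, where the listed counts reach 16, 14, 3 and 35 in the TDP43 panels and 8 in the FOX2 panel.

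Of the 121 TDP43 windows in BBC3, 73 (60.3%) overlapped a window of another TDP43 library by 1 nt or more, and 15 stood at exactly the same position. Over all windows of a TDP43 library the share was 12.1% to 15.7%. Windows are dense in this part of BBC3, which raises that share. In the dense stretch, 45.65% to 51.75% of all nucleotides were near enough to a window of the other 3 libraries to share 1 nt. Of the windows themselves, 83.3% were that near in TDP43 WT replicate 2, 75.0% in P-KO replicate 1 and 68.75% in P-KO replicate 2. In WT replicate 1 the share was 47.4%, against 48.15% of nucleotides.

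In the intron with most TDP43 windows, listed counts started above those of the lists as a whole. In intron 1 of ENST00000300880.7 the lowest listed count was 4 in both TDP43 WT libraries and in P-KO replicate 2, and 3 in P-KO replicate 1, while each list goes down to 2. Elsewhere in BBC3, windows of 2 counts were listed in both TDP43 WT libraries and in P-KO replicate 2. The mean window count was 6.38 and 5.50 in the WT libraries and 3.89 and 6.98 in the P-KO libraries, against 3.02 to 3.19 over each whole list. In FOX2 P-KO replicate 2 it was 5.25, against 5.76 over the whole list. With a higher lowest count in that intron, a higher mean can follow from what was listed, and these means show nothing about strength of contact.

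The few FOX2 contacts all came from 1 library, FOX2 P-KO replicate 2, and 13 of its 21 counts lay in the highest TDP43 site. Of the 4 windows of FOX2 P-KO replicate 2, those at 47732137 (8 counts) and 47732150 (5 counts) lay in the highest TDP43 site and met windows of all 4 TDP43 libraries. The window at 47731902 (5 counts) met windows of 3 TDP43 libraries, and that at 47729158 (3 counts) met none. This library is the deepest of the series and carries the same barcode in the labels as TDP43 P-KO replicate 2 and hnRNP M P-KO replicate 2, shown because it is what tells pooled libraries apart, with the fixed index in capitals and the random bases as n.
P-KO replicate 2 barcode: nnnGCCGnn
Both TDP43 WT libraries carry another: nnnCAATnn
The barcode of the TDP43 WT libraries is also that of hnRNP M P-KO replicate 1. TDP43 P-KO replicate 1 shares its barcode with hnRNP M WT replicate 2. Both of these hnRNP M libraries were listed at 0 in BBC3. The part of depth or of a shared barcode in the FOX2 windows was not tested.

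The hnRNP M windows lay in the dense stretch as well. The window of WT replicate 1, at 47732075, met no TDP43 window. The window of P-KO replicate 2, at 47732428, met a window of TDP43 WT replicate 1.

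The features most like BBC3 over the 12 libraries were low bins bound by TDP43. By Pearson's r of log2 CPM (prior count 2, n = 12 libraries), the highest was the bin at chr5:54690001-54700000 on the plus strand (r = 0.969), with 8 to 14 counts in the TDP43 libraries. It was followed by chr4:119690001-119700000 on the minus strand (r = 0.965, 10 to 11 counts) and chr1:12180001-12190000 on the plus strand (r = 0.962, 5 to 17 counts). The bins at chr5:33730001-33740000 (r = 0.949, 4 to 18 counts) and chr19:50160001-50170000 (r = 0.949, 14 to 29 counts), both on the minus strand, came next. All 5 were listed at 0 in each FOX2 WT and hnRNP M library, and 4 of the 5 had 3 counts in FOX2 P-KO replicate 2. The points share their protein and depth, and r at such counts rests mainly on which libraries were listed at 0.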

How the data were processed

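Per the submitters' processing notes, Bowtie was used and the build was GRCh37 (hg19); the sources used here give neither its version nor the peak caller nor how random barcodes were handled. The deposited file of each library lists single nucleotides with a transcript label, a strand, a count and a last value that is either a p-value or a q-value, which of them being unstated. The deposited counts are whole numbers of at least 2 and are not normalized, and the last value is never above 0.05.

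Counts of neighbouring positions overlap, so positions were kept from the highest count downwards, at least 11 nt apart on a strand. BBC3 and strand-specific 10 kb bins were counted, and 10563 of 97621 features passed filterByExpr. The test was edgeR 4.0.16 in R 4.3.3 (quasi-likelihood F test, TMM, a mean per protein and genotype); the approximate SE was the log2 difference divided by the square root of F. DESeq2 1.42.0 was an alternative. Python 3.11.15 with scipy 1.17.1 was used otherwise. The fit was tested on simulated data with features raised in TDP43 P-KO. Of 100 features raised 8-fold, it recovered 0 against FOX2 P-KO, 2 against hnRNP M P-KO and 0 against TDP43 WT. Of 100 raised 32-fold, it recovered 17, 38 and 11, so it missed most of these raised features. They were drawn from all features above the median mean CPM, so their recovery does not describe a feature as high as BBC3. Their median log2 differences, in the same order, were 2.36, 3.64 and 2.98 for 8-fold, and 4.91, 5.58 and 5.13 for 32-fold. False calls numbered 0 in each comparison. Replicates differed by more than sampling noise (chi-square per degree of freedom 5.23 to 8.67), so each was counted; nothing in the labels says what the replicates share. The named items are BBC3, its repeated windows, the highest window of each library, the FOX2 and hnRNP M windows, and the 5 features most like it. Gene, lists and sites were chosen with earlier results of these data known.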

Additional observations from a re-analysis of the deposited data

How the results depend on the processing

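TDP43 P-KO stayed above FOX2 and hnRNP M P-KO in BBC3 in each of the 24 other fits per comparison, but the side of the threshold moved. Against FOX2 the log2 difference passed without TMM factors (5.42, edgeR adjusted p = 0.0103), with DESeq2 (5.74, adjusted p = 0.00290), with only the libraries compared (5.90, edgeR adjusted p = 0.0173), by the number of windows (4.72, edgeR adjusted p = 5.38e-09) and in the plain 10 kb bin (5.20, edgeR adjusted p = 0.0485). With the replicate block it was 5.26 (edgeR adjusted p = 0.0195) and calls over all features went from 223 to 309. Deviations of same-numbered libraries correlated by 0.00797 to 0.130, so the numbers were not taken to pair the samples. Leaving out 1 library gave 3.84 to 10.6, and 2 of 12 such fits passed. Against hnRNP M the difference did not pass without TMM factors (4.94), without a filter on low counts (6.89), with at least 20 counts in 2 libraries (5.98), with the robust option (6.56), with only the libraries compared (6.40) or with all listed counts summed (8.42), at edgeR adjusted p from 0.0614 to 0.343; leaving out 1 library gave 5.82 to 10.7. Fits without a library tested more features, from 19922 to 21511, since the filter then asks for a single library. The genotype difference within TDP43 ranged from -0.36 to 0.80 when 1 library was left out, and passed in none of its 24 other fits. With other settings, calls over all features ranged from 60 to 1542 against FOX2 (223 as reported), from 0 with the robust option (2330 at an unadjusted p under 0.05) or with only the libraries compared to 373 with DESeq2 against hnRNP M (93 as reported), and from 0 to 8 between genotypes (3 as reported); leaving out 1 library gave 0 to 505, 0 to 580 and 0 to 3. TDP43 signal in WT was 727 CPM with all listed positions, 579 with 21 nt spacing and 673 without mitochondrial and GL positions; in P-KO it was 1059.7 with all listed positions. Leaving out 1 library gave 622 to 645 CPM in WT and 608 to 977 in P-KO. Windows at the same position in more than 1 TDP43 library numbered 15, against 73 by overlap. The causes were not tested. Low counts were left out of the lists, so a library listed at 0 in BBC3 has no upper limit there.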
